A study of Homo sapiens with 101 samples.

Results

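The genes described here make cholesterol and fatty acids and are known targets or partners of the sterol regulatory element binding proteins (SREBPs). They are 32 gene symbols on a list drawn up with earlier results of these data known, and the rule itself uses no measured value. The array table held a probe set naming a single gene for 29 of the 32, out of 19775 genes in all. These were 16 of 18 sterol synthesis genes, 5 of 5 regulation genes and 8 of 9 fatty acid synthesis genes. FDFT1, CYP51A1 and FADS1 were not measured, because their probe sets also name another gene. A gene's value is that of the probe set with the highest mean level.

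SREBPs are transcription factors held in the endoplasmic reticulum membrane. The escort protein SCAP carries them to the Golgi when membrane sterol is low, proteases release the active fragment, and the fragment enters the nucleus. The INSIG proteins retain SCAP when sterol is high. SREBF2 encodes the SREBP best known for sterol synthesis and SREBF1 the form best known for fatty acid synthesis, and both pathways supply membranes to dividing cells.

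The cells were SW620, an established colorectal cancer line from a lymph node metastasis, and SW480, a line from the primary tumour of the same case. Both were given a pLKO vector with a short hairpin RNA against CDK5, HRAS, MAP2K1, MAP2K2, MAPK3 or NGFR. The comparison cells carried a pLKO vector with a non-target hairpin, an empty pLKO vector, or no vector (non-transduced). CDK5 and NGFR encode a cyclin-dependent kinase and a neurotrophin receptor, and the other targets encode a RAS GTPase, the MEK kinases and an ERK kinase. There were 18 groups, 9 treatments in 2 lines, with 6 arrays in each, except 5 for the CDK5 knockdown in SW620 and 3 in each non-transduced group. Each target other than HRAS had 1 hairpin code in the labels. The HRAS code of replicate 1 was not that of replicates 3 to 6, and replicate 2 had no stated code. The sample names follow 4 styles, called label series here. Replicates 3 to 6 form 1 series of 64 arrays, replicate 2 has 18, replicate 1 has 17, and 2 non-transduced arrays are replicate 7. The sample titles name every replicate "biorep". No label tells if replicates 3 to 6 came from separate cultures, so p-values measure the spread between these arrays, which may be technical.

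Levels are log2 array values. A change is the level in a knockdown minus that in both vector controls of its line, on the log2 scale, from a fit with a term for label series, and ± marks its standard error. Within a line, the 6 knockdowns share the same 12 vector control arrays. "Rose" and "fell" are used for changes with an adjusted limma p under 0.05. Array medians lay between 5.05 and 5.28. In SW480 the targets stood at 9.25% of the vector controls (NGFR) to 80.2% (MAPK3). In SW620 they stood at 27.6% (MAP2K1) to 69.8% (NGFR), and the NGFR change in SW620 missed the threshold (limma, adjusted p = 0.136). Epithelial markers reached 13.39 in SW620 and 13.80 in SW480 (KRT18), although KRT20 lay at 3.62 in SW620 and 3.59 in SW480. Medians of endothelial, leukocyte, adipocyte and hepatocyte markers stayed between 3.42 and 6.03 in both lines, and those of fibroblast markers between 3.22 and 8.61. In such bulk RNA, fewer cells of a kind and less RNA per cell cannot be told apart. Of all arrays, 6 stood apart. Degraded RNA, seen as a GAPDH 3 prime minus 5 prime difference over 2, marked the replicate 2 arrays of the MAP2K1 knockdown (6.04) and MAPK3 knockdown (2.95) and the replicate 1 array of the NGFR knockdown (3.82), all in SW620. Replicate 1 arrays of SW480 with the MAP2K1, MAP2K2 or MAPK3 knockdown held genes of SW620, at 0.30, 0.66 and 0.35 of the distance between the lines over 50 genes. The 50 were the genes with the largest excess in SW620 over SW480 vector controls, and genes higher in SW480 were not scored.

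Promoters were read from RefSeq (GRCh38.p14), 250 bases before to 50 after each gene's start, for 28 of the 32 listed genes. The 28 include CYP51A1 and FADS1, which were not measured on the arrays, and lack ACAT2, FASN and SQLE, which were. Those of 4 genes that several results turn on are given first, namely SREBF2 and INSIG1 from the control loop, MSMO1 from the sterol arm and SCD from the fatty acid arm. Capitals mark the CACNCCAC core of the sterol element and the CCAAT box, on either strand.
SREBF2 (chr22:41832855-41833154, + strand): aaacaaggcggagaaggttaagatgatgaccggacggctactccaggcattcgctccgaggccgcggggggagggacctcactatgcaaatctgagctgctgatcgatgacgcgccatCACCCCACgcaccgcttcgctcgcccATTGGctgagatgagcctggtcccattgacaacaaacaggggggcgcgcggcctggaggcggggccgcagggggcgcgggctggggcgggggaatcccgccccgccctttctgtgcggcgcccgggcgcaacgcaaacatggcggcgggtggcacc
INSIG1 (chr7:155297628-155297927, + strand): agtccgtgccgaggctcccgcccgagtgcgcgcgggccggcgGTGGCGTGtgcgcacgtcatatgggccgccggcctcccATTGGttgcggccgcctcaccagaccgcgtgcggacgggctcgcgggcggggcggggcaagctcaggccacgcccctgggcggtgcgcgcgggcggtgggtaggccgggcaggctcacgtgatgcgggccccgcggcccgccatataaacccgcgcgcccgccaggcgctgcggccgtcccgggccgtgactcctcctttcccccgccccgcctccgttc
MSMO1 (chr4:165327419-165327718, + strand): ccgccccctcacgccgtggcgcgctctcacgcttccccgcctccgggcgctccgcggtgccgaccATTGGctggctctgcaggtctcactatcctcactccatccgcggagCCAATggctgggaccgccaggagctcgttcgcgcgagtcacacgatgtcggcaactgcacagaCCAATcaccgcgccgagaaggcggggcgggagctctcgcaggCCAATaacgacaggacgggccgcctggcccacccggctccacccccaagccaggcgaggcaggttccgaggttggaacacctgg
SCD (chr10:100346983-100347282, + strand): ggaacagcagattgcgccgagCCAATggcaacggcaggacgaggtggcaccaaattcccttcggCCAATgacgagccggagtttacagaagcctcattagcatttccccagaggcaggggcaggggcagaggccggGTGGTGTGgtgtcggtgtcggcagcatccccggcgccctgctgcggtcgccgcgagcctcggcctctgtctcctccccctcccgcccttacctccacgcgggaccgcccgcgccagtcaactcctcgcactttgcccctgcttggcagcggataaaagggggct
Over both strands, the full sterol element TCACNCCAC was found in 1 of the 40 promoters of these genes, that of SREBF2, and in 1.13% of 35116 promoters. The shorter core CACNCCAC, which is contained in the full element and was searched after that result was seen, was found in 7 of 40, against 5.87% of all promoters. Windows of a gene can overlap, and the 2 windows of SC5D hold the same core, so the 7 come from 6 of 28 genes. Counted from the gene's start, it lay at -132 in SREBF2, -208 in INSIG1 and -114 in SCD, and MSMO1 had none in this window. CCAAT, the box bound by NF-Y, was found in 25 of 40, against 34.6% of all, with 4 copies in MSMO1 and 2 in SCD. The GC box GGGCGG was in 35 of 40 (45% of all) and the E box CACGTG in 5 of 40 (7.26% of all).

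In SW620 a larger share of these genes than of all genes rose with the CDK5, MAP2K1 and NGFR knockdowns. In SW480 the genes that passed the test were mainly lower. In SW620, 11 of 29 genes rose with the CDK5 knockdown (37.9%, against 10.6% of all genes), 7 with the MAP2K1 knockdown (24.1%, against 9.77%) and 6 with the NGFR knockdown (20.7%, against 12.9%). With the MAP2K2 knockdown 3 rose (10.3%, against 10.5% of all genes), with MAPK3 3 (10.3%, against 13.9%) and with HRAS 2 (6.90%, against 14.2%). Falls in SW620 numbered 6 with the MAPK3 knockdown (20.7%, against 15.9% of all genes), 5 with HRAS (17.2%, against 16.8%), 1 with CDK5 (3.45%, against 13.4%), 1 with MAP2K1 (3.45%, against 9.28%) and 0 with MAP2K2 (against 12.7%) and NGFR (against 13.4%). The share that fell with HRAS and the share that rose with MAP2K2 were close to those of all genes. Counted in either direction, 12 genes were called with CDK5 (24.0% of all genes), 9 with MAPK3 (29.8%), 8 with MAP2K1 (19.1%), 7 with HRAS (31.0%), 6 with NGFR (26.3%) and 3 with MAP2K2 (23.2%). Leaving out any 1 of replicates 3 to 6 gave 5 to 7 with CDK5 and 5 with MAP2K1, while the share of all genes called in those runs was 15.1% to 15.5% with CDK5 and 11.8% to 12.3% with MAP2K1. Leaving out replicate 1 gave 16 with MAPK3 (42.5% of all genes in that run), 13 with HRAS (39.1%), 12 with MAP2K1 (31.4%), 10 with MAP2K2 (36.8%) and 10 with NGFR (31.8%). Leaving out replicate 2 gave 12 with HRAS (36.1%) and 10 with MAP2K2 (27.5%). Calls over all genes moved in the same direction in each of these runs.

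In SW480, 11 of 29 fell with the HRAS knockdown (37.9%, against 16.2% of all genes) and 9 with the NGFR knockdown (31.0%, against 10.9%), where 2 rose (6.90%, against 13.1%). With the MAPK3 knockdown 6 fell (20.7%, against 6.46%), with MAP2K2 5 (17.2%, against 3.09%) and with MAP2K1 2 (6.90%, against 3.34%). Apart from NGFR, no gene rose in these knockdowns, against 9.97% of all genes with HRAS, 4.21% with MAPK3, 3.2% with MAP2K1 and 2.07% with MAP2K2. With the CDK5 knockdown in SW480 limma called 0 of 29, against 4.15% of all genes called higher and 3.9% lower, and 3 of the 29 had an unadjusted p under 0.05. Counted in either direction, 11 genes were called with HRAS (26.2% of all genes), 11 with NGFR (24.0%), 6 with MAPK3 (10.7%), 5 with MAP2K2 (5.17%), 2 with MAP2K1 (6.54%) and 0 with CDK5 (8.06%). Leaving out replicate 2 gave 21 with HRAS (32.5% of all genes in that run), 21 with MAPK3 (18.7%), 17 with NGFR (29.2%), 14 with MAP2K2 (12.3%), 7 with MAP2K1 (17.1%) and 5 with CDK5 (14.0%). Of the 7 with MAP2K1 in that run, 3 sterol genes rose, and 1 sterol gene and 3 fatty acid genes fell. Leaving out replicate 1 gave 6 with MAP2K1 (10.4%). Of these 6, 3 sterol genes and 1 fatty acid gene rose, and 2 fatty acid genes fell. Leaving out any 1 of replicates 3 to 6 gave 1 or 2 with MAPK3 (5.63% to 6.31% of all genes), 6 or 7 with NGFR (16.2% to 17.2%) and 3 with MAP2K2 (1.98% to 2.36%), and leaving out replicate 4 gave 1 with MAP2K1 (3.05%). The SW480 counts also depended on the control. With the empty vector alone they were lower for HRAS, MAP2K2 and MAPK3 and higher for CDK5 and MAP2K1, as listed in the closing section. Of the 29 genes, 27 lay higher with the non-target hairpin than with the empty vector in SW480 (median 0.23).

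**Figure D1:**
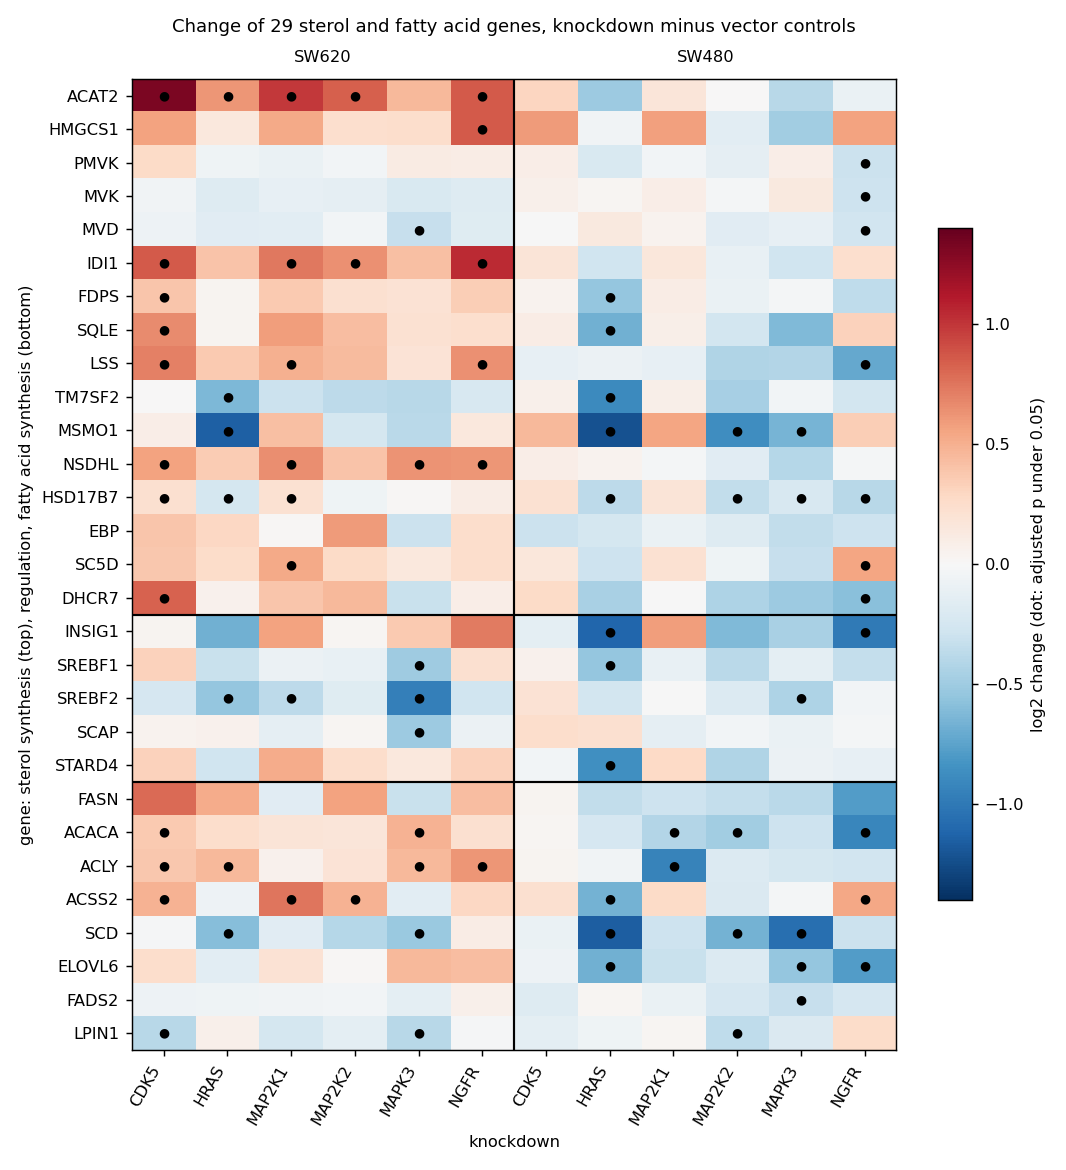
Log2 change of each measured gene (rows, by arm) in each knockdown against the vector controls (columns, SW620 left of SW480), with marks on changes whose adjusted p was under 0.05. The SW620 columns of CDK5, MAP2K1 and NGFR hold 11, 7 and 6 marked rises, and the SW480 columns of HRAS and NGFR hold 11 and 9 marked falls.

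The sterol genes that rose did so mainly in SW620. The median change of the 16 sterol genes was 0.39 with the CDK5 knockdown, 0.40 with MAP2K1, 0.25 with MAP2K2, 0.24 with NGFR, 0.13 with MAPK3 and 0.05 with HRAS, while the median over all genes lay near 0. ACAT2, the cytosolic thiolase that begins the mevalonate pathway, rose in 5 of the 6 knockdowns. Its levels with the CDK5 knockdown were 9.44 in replicate 2 and 9.78, 9.80, 9.82 and 9.78 in replicates 3 to 6. The non-target arrays read 7.29, 6.52, 9.00, 8.88, 8.90 and 8.90 in replicates 1 to 6, and the empty-vector arrays 7.02, 6.51, 8.77, 8.80, 8.78 and 8.78. Every CDK5 knockdown array lay above all 12 vector controls, and the controls of replicates 1 and 2 lay far below those of replicates 3 to 6. The change of ACAT2 was 1.32 ± 0.25 with CDK5 (adjusted p = 2.93e-05), 0.99 ± 0.23 with MAP2K1 (0.000952), 0.86 with NGFR (0.00362), 0.84 with MAP2K2 (0.00503) and 0.62 with HRAS (0.0348). Within label series it ran between 2.03 and 3.22 in replicate 2, and between 0.26 and 0.94 in replicates 3 to 6, over these 5 knockdowns. The HRAS call for ACAT2 ended when any of replicates 3, 4, 5 or 6 was left out (adjusted p between 0.0572 and 0.0778).

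IDI1 isomerises the isoprenoid building block, and LSS closes squalene epoxide into lanosterol. With the NGFR knockdown in SW620 the level of IDI1 was 9.57, 9.92, 9.95, 9.99, 9.92 and 10.04 in replicates 1 to 6, against 8.42, 7.93, 9.30, 9.35, 9.28 and 9.34 with the non-target hairpin and 8.05, 7.92, 9.18, 9.09, 9.21 and 9.17 with the empty vector. All 6 knockdown arrays lay above all 12 controls. IDI1 rose by 1.04 ± 0.19 with NGFR (adjusted p = 9.21e-06), 0.86 ± 0.20 with CDK5 (0.000573), 0.74 ± 0.19 with MAP2K1 (0.0021) and 0.64 ± 0.19 with MAP2K2 (0.00682). Its probe set carries the name ending of probes shared between transcripts. In the CDK5, MAP2K1 and MAP2K2 comparisons, 2 of its 3 other probe sets moved the same way. LSS rose by 0.71 ± 0.19 with CDK5 (adjusted p = 0.00242), by 0.64 ± 0.17 with NGFR (0.00307) and by 0.49 ± 0.17 with MAP2K1 (0.033). With MAP2K1 and with NGFR, 1 of the 2 other LSS probe sets moved the other way, and with the mean of a gene's probe sets neither LSS call held (0.20, adjusted p = 0.248 with MAP2K1 and 0.28, 0.0551 with NGFR). NSDHL, a demethylating enzyme between lanosterol and cholesterol, rose with CDK5 (0.57), MAP2K1 (0.65), NGFR (0.62) and MAPK3 (0.63). Its other probe set had a change of 0.01 with MAPK3, and that call ended with the mean of both (0.32, adjusted p = 0.0782).

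HMGCS1, which makes hydroxymethylglutaryl-CoA, passed the threshold in 1 of the 12 comparisons, the NGFR knockdown in SW620, where it rose by 0.86 ± 0.22 (adjusted p = 0.00214). Its levels there were 7.65, 8.41, 9.18, 9.13, 9.19 and 9.19, against 6.83, 6.55, 8.73, 8.65, 8.68 and 8.68 with the non-target hairpin and 6.30, 6.58, 8.57, 8.46, 8.56 and 8.61 with the empty vector. Each knockdown array lay above the controls of its label series, although the ranges over all replicates overlapped. With CDK5 the change of HMGCS1 was 0.56 (adjusted p = 0.0754), with 5 of 5 arrays higher. Among the later enzymes, DHCR7, the last reductase of the pathway, rose by 0.82 ± 0.24 with CDK5 (adjusted p = 0.0077), SC5D rose by 0.53 ± 0.15 with MAP2K1 (0.0059), and SQLE (0.67), FDPS (0.39) and HSD17B7 (0.23) rose with CDK5. The other probe set of SC5D had a change of -0.32 with MAP2K1, and the mean of both was not called (0.10, adjusted p = 0.587).

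Several of these SW620 calls depended on the replicates kept. Without replicate 2, the CDK5 calls of NSDHL (0.42, adjusted p = 0.0866), SQLE (0.41, 0.0797), FDPS (0.18, 0.198) and HSD17B7 (0.18, 0.069) ended, as did the MAP2K1 calls of NSDHL (0.42, 0.0773) and HSD17B7 (0.16, 0.102) and the MAPK3 call of NSDHL (0.31, 0.181). These 4 CDK5 calls also ended without any 1 of replicates 3 to 6 (adjusted p between 0.0631 and 0.1), and the MAP2K1 calls of LSS and HSD17B7 did so too (0.0652 to 0.134). Without the arrays that stood apart, the MAP2K1 calls of LSS (0.40, adjusted p = 0.115) and HSD17B7 (0.17, 0.0759) and the NGFR call of NSDHL (0.34, 0.0523) ended. ACAT2 and IDI1 kept their CDK5, MAP2K1, MAP2K2 and NGFR calls in each of these runs. They did not keep them all with the arrays of replicates 3 to 6 averaged in pairs. Then 0 of the 16 sterol genes were called with MAP2K2, so both of those calls ended. With MAP2K1 only 1 of the 16 was called, so ACAT2, IDI1 or both lost that call.

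With the HRAS knockdown in SW620, 3 sterol genes fell and 1, ACAT2, rose. MSMO1, the oxidase that removes methyl groups from lanosterol-type sterols, read 6.40, 6.88, 8.68, 8.70, 8.74 and 8.67 in HRAS knockdown arrays, against 7.87, 6.74, 10.16, 10.19, 10.18 and 10.19 with the non-target hairpin and 7.40, 6.99, 10.06, 10.03, 10.02 and 10.02 with the empty vector. It lay below the controls of its series in 5 of 6 arrays, and replicate 2 lay between its controls. MSMO1 fell by 1.14 ± 0.21 on the log2 scale (adjusted p = 5.62e-06). TM7SF2, a sterol reductase, fell by 0.63 ± 0.17 (0.00258) and HSD17B7 by 0.25 (0.00553), both in 6 of 6 arrays. The only sterol gene to fall with the MAPK3 knockdown in SW620 was MVD, a mevalonate pathway decarboxylase (-0.32 ± 0.09, adjusted p = 0.0041). Its difference from the controls was -0.84 on the degraded replicate 2 array, -0.09 in replicate 1 and -0.25 in replicates 3 to 6. MVD is dim in both lines. Vector controls of replicates 3 to 6 stood at 5.52 in SW620 and 5.44 in SW480, near the 40th percentile of all genes (5.49).

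In SW480 the sterol genes called were mainly lower. The medians of the 16 were -0.34 with the MAPK3 knockdown, -0.28 with HRAS, -0.26 with NGFR, -0.16 with MAP2K2, 0.09 with MAP2K1 and 0.10 with CDK5. MSMO1 read 7.64, 7.39, 8.14, 8.21, 8.30 and 8.47 in HRAS knockdown arrays, against 9.65, 7.21, 10.22, 10.24, 10.23 and 10.17 with the non-target hairpin and 7.89, 6.99, 9.60, 9.57, 9.61 and 9.59 with the empty vector. As in SW620, replicate 2 was the exception, with its knockdown array above both controls. MSMO1 fell by 1.22 ± 0.21 with HRAS (adjusted p = 1.71e-06), by 0.86 ± 0.21 with MAP2K2 (0.00423) and by 0.65 ± 0.21 with MAPK3 (0.0249). With HRAS, TM7SF2 fell by 0.89 ± 0.17 (2.24e-05), SQLE by 0.67 ± 0.22 (0.0168), FDPS by 0.54 ± 0.14 (0.00177) and HSD17B7 by 0.36 ± 0.07 (5.81e-05). For SQLE, 1 of its 3 other probe sets moved the other way, and the mean of its probe sets was not called (-0.35, adjusted p = 0.0885). HSD17B7 fell in the HRAS, MAP2K2, MAPK3 and NGFR knockdowns of SW480, by between 0.22 and 0.39 on the log2 scale. In both lines it was read by a single probe set, with the name ending of probes shared between transcripts, so no other could be compared.

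With the NGFR knockdown in SW480, 6 of the 16 sterol genes fell and 1 rose. LSS read 8.74, 8.24, 8.42, 8.52, 8.45 and 8.52, against 10.29, 8.39, 9.32, 9.30, 9.36 and 9.46 with the non-target hairpin and 8.82, 8.47, 9.30, 9.25, 9.25 and 9.20 with the empty vector. All 6 arrays lay below the controls of their series, and the ranges over all replicates overlapped. LSS fell by 0.72 ± 0.17 (adjusted p = 0.000817). DHCR7 (-0.58), HSD17B7 (-0.39) and the mevalonate enzymes PMVK (-0.30), MVK (-0.29) and MVD (-0.26) fell as well. SC5D rose by 0.55 ± 0.15 (0.00316), and its other probe set had a change of -0.07. With the mean of a gene's probe sets the calls of SC5D (0.24, adjusted p = 0.104) and DHCR7 (-0.38, 0.185) ended. MSMO1 was not called here, at 8.93, 8.02, 10.12, 10.12, 10.23 and 10.16.

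None of the SW480 knockdown calls of these genes ended without replicate 2. Leaving out any 1 of replicates 3 to 6, in all groups at once, ended the HRAS call of SQLE (adjusted p between 0.0559 and 0.249), the MAPK3 calls of MSMO1 (0.144 to 0.176) and HSD17B7 (0.0977 to 0.235), and the NGFR calls of DHCR7 (0.119 to 0.136), MVK (0.0602 to 0.123) and PMVK (0.0629 to 0.11). The change of SQLE with HRAS was -0.46 without replicate 3, -0.45 without replicate 4 and 0.42 with replicates 1 and 2 only. HRAS knockdown replicates 3 and 4 in SW480 read 8.07 and 7.96 for SQLE, against 9.21 and 9.13 in replicates 5 and 6, and their GAPDH differences were 1.39 and 1.47. The part of RNA quality in this fall was not tested. Without replicate 1 the NGFR calls of DHCR7 (-0.48, adjusted p = 0.105) and MVD (-0.17, 0.148) ended.

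**Figure D2:**
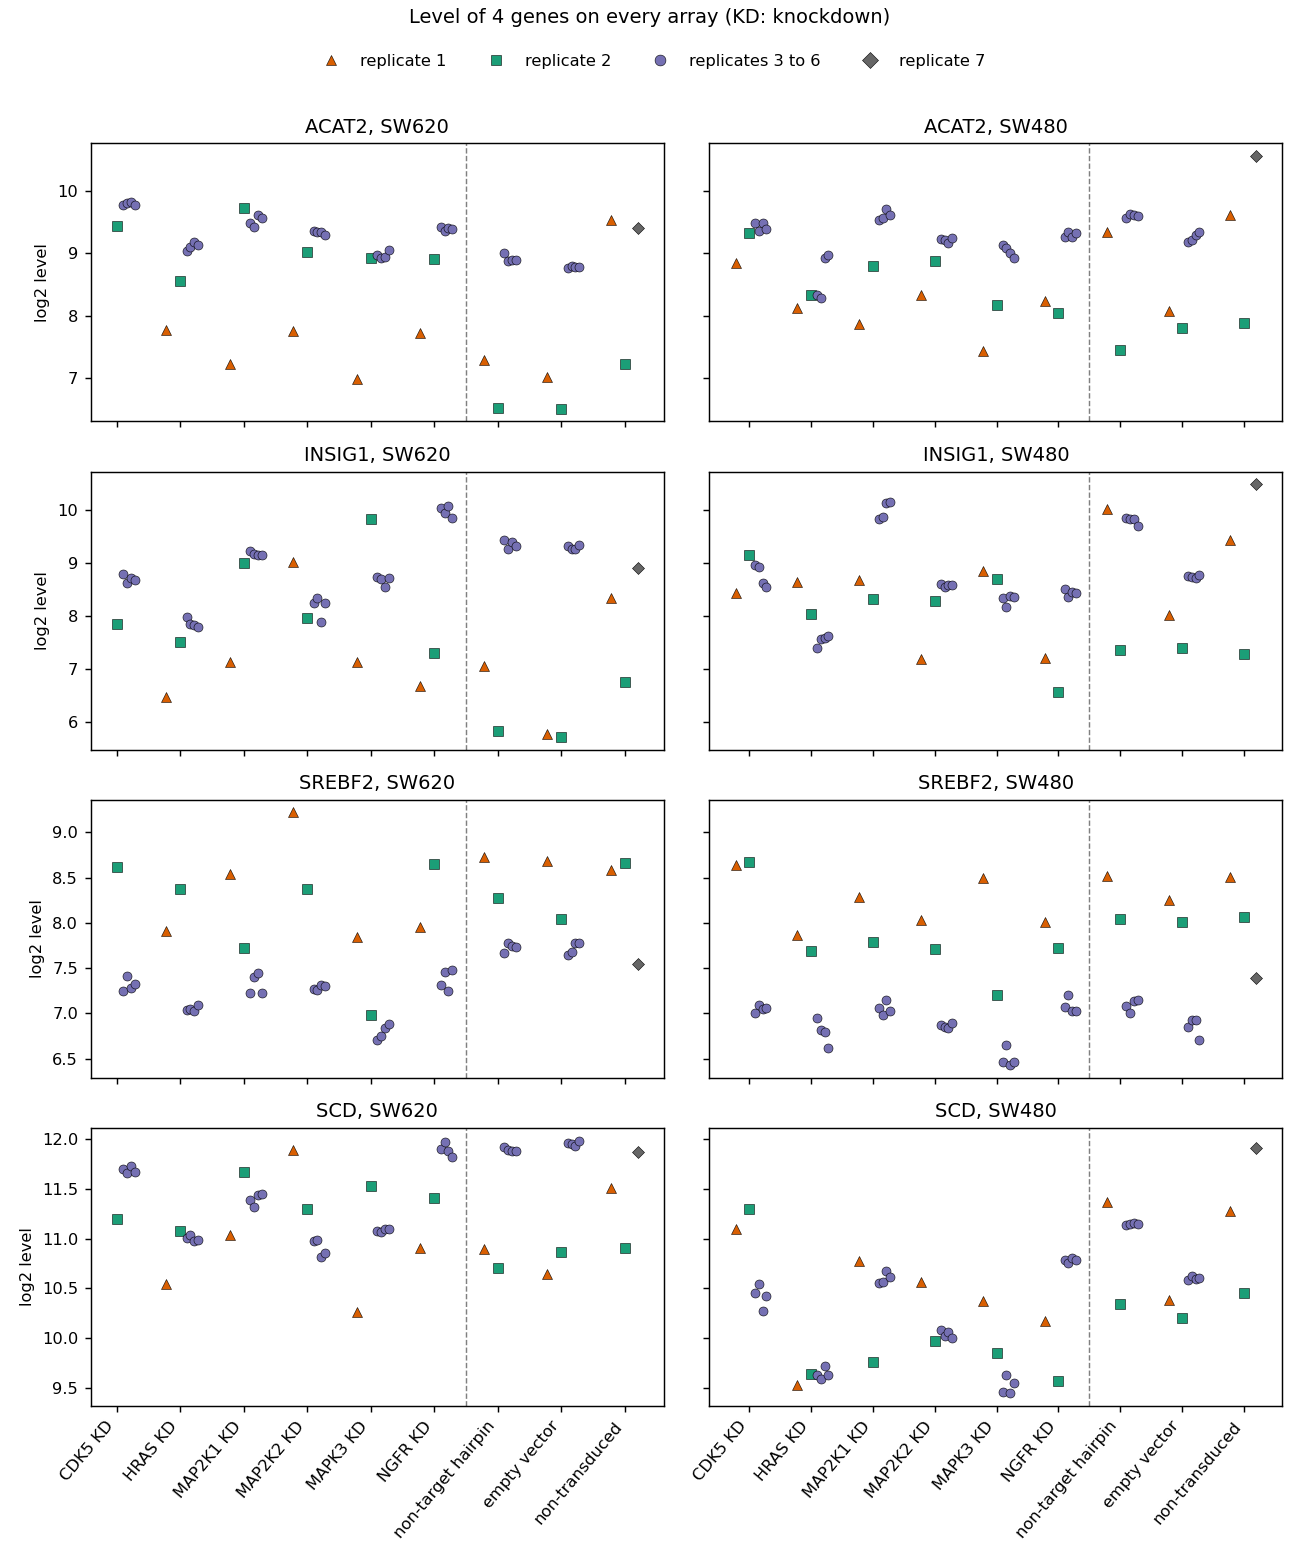
Log2 level of ACAT2, INSIG1, SREBF2 and SCD on every array (points), by treatment (SW620 panels left of SW480) and label series. ACAT2 in the SW620 CDK5 knockdown (9.44 to 9.82) lay above all vector controls (6.51 to 9.00), and SCD in the SW480 HRAS knockdown (9.53 to 9.72) lay below all of them (10.20 to 11.37).

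Among the 5 regulation genes, SREBF2 fell in SW620 with the MAPK3, HRAS and MAP2K1 knockdowns. With the MAPK3 knockdown its levels were 7.84, 6.98, 6.71, 6.75, 6.84 and 6.88, against 8.73, 8.27, 7.67, 7.78, 7.74 and 7.73 with the non-target hairpin and 8.68, 8.04, 7.65, 7.68, 7.78 and 7.78 with the empty vector. All 6 knockdown arrays lay below the controls of their label series, and replicate 1 alone overlapped controls of other series. SREBF2 stood at 0.514 of the controls, a log2 change of -0.96 ± 0.11 (adjusted p = 7.59e-11), and its 2 other probe sets had changes of -0.78 and -0.02. It fell by 0.54 ± 0.11 with HRAS (6.03e-05) and by 0.37 ± 0.11 with MAP2K1 (0.0128). The MAP2K1 call ended without any 1 of replicates 3 to 6 (adjusted p between 0.051 and 0.0875). In SW480 SREBF2 fell by 0.43 ± 0.11 with MAPK3 (0.00422), in 5 of 6 arrays. Replicate 1, at 8.50, lay between its controls, and 1 of the 2 other probe sets moved the other way. That SW480 call ended in 1 of the 4 runs that left out a replicate of 3 to 6 (-0.40, adjusted p = 0.06).

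INSIG1, which retains SCAP and is itself a classic SREBP target, fell in SW480 with the HRAS and NGFR knockdowns. With HRAS it read 8.65, 8.03, 7.40, 7.57, 7.58 and 7.61, against 10.03, 7.36, 9.85, 9.83, 9.84 and 9.70 with the non-target hairpin and 8.01, 7.39, 8.75, 8.73, 8.72 and 8.77 with the empty vector. Replicates 3 to 6 lay below their controls, replicate 1 between them and replicate 2 above them. With NGFR it read 7.21, 6.55, 8.51, 8.36, 8.45 and 8.44, below the controls of the series in all 6 arrays. INSIG1 fell by 1.11 ± 0.36 with HRAS (adjusted p = 0.0141) and by 0.99 ± 0.36 with NGFR (0.0308). Both calls ended without any 1 of replicates 3 to 6 (0.0747 to 0.118 with HRAS and 0.0822 to 0.093 with NGFR). The NGFR call ended without replicate 1 (-0.83, adjusted p = 0.0504) and with the mean of probe sets (-0.77, 0.0651), and with replicates 1 and 2 only the HRAS change was 0.14. In SW620 INSIG1 had 10.04, 9.94, 10.08 and 9.85 in replicates 3 to 6 with the NGFR knockdown, above all vector controls, but 6.67 in replicate 1, between its controls of 7.05 (non-target) and 5.76 (empty vector). Its change of 0.73 ± 0.36 there missed the threshold (adjusted p = 0.12).

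SREBF1 fell by 0.55 ± 0.17 with HRAS in SW480 (adjusted p = 0.0113) and by 0.50 ± 0.17 with MAPK3 in SW620 (0.0202). SCAP fell by 0.51 ± 0.15 with MAPK3 in SW620 (0.00501). In that comparison both genes stood at 6.35 on the replicate 2 array with degraded RNA. The other 5 arrays gave 8.58, 8.06, 7.99, 8.18 and 8.08 for SREBF1 and 8.48, 8.16, 8.21, 8.28 and 8.21 for SCAP. Without the arrays that stood apart the changes were -0.12 (adjusted p = 0.516) for SREBF1 and -0.11 (0.306) for SCAP, and neither was called. Without replicate 2 they were -0.21 (0.215) and -0.10 (0.411). The HRAS call of SREBF1 ended without replicate 1 (-0.41, adjusted p = 0.0682), and with the mean of both probe sets (-0.24, 0.0743), the other of which had a change of 0.07. STARD4, which moves sterol between membranes, fell by 0.86 ± 0.22 with HRAS in SW480 (0.00169), in 5 of 6 arrays.

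In the fatty acid arm, SCD, the desaturase that makes monounsaturated fatty acids, fell in both lines with the HRAS and MAPK3 knockdowns. In SW480 with HRAS it read 9.53, 9.64, 9.63, 9.59, 9.72 and 9.63, against 11.37, 10.34, 11.14, 11.15, 11.16 and 11.15 with the non-target hairpin and 10.38, 10.20, 10.58, 10.62, 10.59 and 10.60 with the empty vector. The groups did not overlap. SCD fell by 1.15 ± 0.17 there, to 0.45 of the controls (adjusted p = 3.04e-08), by 1.06 ± 0.17 with MAPK3 (1.08e-06) and by 0.66 ± 0.17 with MAP2K2 (0.00713). In SW620 it fell by 0.60 ± 0.17 with HRAS (0.00281) and by 0.52 ± 0.17 with MAPK3 (0.0117), in 5 of 6 arrays each. Replicate 2 was above its controls in both, and with replicates 1 and 2 only the SW620 changes were 0.04 and 0.12. Leaving out any 1 of replicates 3 to 6 ended the MAPK3 call in SW620 (adjusted p between 0.0736 and 0.089) and the MAP2K2 call in SW480 (0.0657 to 0.0787). These values are of the brightest of 4 SCD probe sets, and the other 3 gave smaller changes. They ran between -0.59 and -0.32 with HRAS, -0.41 and -0.11 with MAPK3 and -0.61 and -0.36 with MAP2K2 in SW480, and between -0.30 and -0.18 with HRAS and -0.18 and -0.02 with MAPK3 in SW620. With the mean of the probe sets only the HRAS call in SW480 held, and those of MAPK3 (-0.42, adjusted p = 0.138) and MAP2K2 (-0.52, 0.077) in SW480 and of HRAS (-0.34, 0.161) and MAPK3 (-0.21, 0.422) in SW620 ended.

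ACLY makes cytosolic acetyl-CoA from citrate, and ACACA carboxylates it to malonyl-CoA. ACLY had the levels 9.62, 10.52, 10.38, 10.41, 10.40 and 10.38 with the MAP2K1 knockdown in SW480, against 11.57, 10.95, 11.34, 11.33, 11.33 and 11.23 with the non-target hairpin and 11.18, 10.98, 11.20, 11.17, 11.19 and 11.22 with the empty vector. No knockdown array overlapped a control. ACLY fell by 0.94 ± 0.12, to 0.521 of the controls (adjusted p = 7.74e-09). In SW620 it rose with NGFR (0.61 ± 0.12, 4.32e-05), MAPK3 (0.46), HRAS (0.45) and CDK5 (0.37). The CDK5 and MAPK3 calls ended without replicate 2 (0.19, adjusted p = 0.104, and 0.20, 0.0547), and the CDK5 call also without any 1 of replicates 3 to 6 (0.0602 to 0.0727). The other 2 ACLY probe sets had changes of 0.10 and 0.22 with NGFR and 0.00 and 0.36 with MAPK3, and with the mean of the probe sets these calls ended (0.31, adjusted p = 0.0856, and 0.27, 0.129). ACACA read 7.86, 7.75, 8.16, 8.17, 8.08 and 8.16 with the NGFR knockdown in SW480, against 9.09, 8.81, 9.06, 9.04, 9.07 and 9.12 with the non-target hairpin and 8.69, 8.78, 8.95, 8.95, 8.94 and 8.84 with the empty vector. The groups did not overlap, and ACACA fell by 0.91 ± 0.11 (adjusted p = 1.17e-10), but its other probe set had a change of -0.11. It also fell in SW480 with MAP2K2 (-0.49, 0.0018) and MAP2K1 (-0.41, 0.00919), and it rose in SW620 with MAPK3 (0.48, 0.000327) and CDK5 (0.36, 0.0151). In these comparisons the other ACACA probe set had changes of -0.12, -0.07, 0.16 and 0.14. The calls with MAP2K2 (-0.31, adjusted p = 0.0765), MAP2K1 (-0.24, 0.18) and CDK5 (0.29, 0.053) ended with the mean of both. The MAP2K1 call also ended without replicate 4 (0.0531), and both SW480 calls ended with the empty vector alone as control.

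ACSS2, which makes acetyl-CoA from acetate, rose in SW620 with MAP2K1 (0.75 ± 0.13, adjusted p = 1.51e-05), MAP2K2 (0.49) and CDK5 (0.49). In SW480 it fell by 0.66 ± 0.13 with HRAS (5.89e-05) and rose by 0.54 ± 0.13 with NGFR (0.00106). The elongase ELOVL6 fell in SW480 with NGFR (-0.78 ± 0.18, 0.000466), HRAS (-0.68 ± 0.18, 0.00264) and MAPK3 (-0.54 ± 0.18, 0.0371). LPIN1, a phosphatidate phosphatase, fell in SW620 with CDK5 (-0.39 ± 0.11, 0.00506) and MAPK3 (-0.39 ± 0.10, 0.00184) and in SW480 with MAP2K2 (-0.36). The desaturase FADS2 fell with MAPK3 in SW480 (-0.32). With the mean of probe sets the calls of LPIN1 with CDK5 (-0.22, adjusted p = 0.0682) and FADS2 (-0.17, 0.0921) ended. The calls of ELOVL6 (0.162 to 0.186) and FADS2 (0.0916 to 0.118) with MAPK3 and of LPIN1 with MAP2K2 (0.0962 to 0.121) ended without any 1 of replicates 3 to 6, and those of FADS2 (-0.19, 0.0855) and LPIN1 (-0.25, 0.064) without replicate 1. FASN, the fatty acid synthase, passed the threshold in none of the 12 comparisons. Its closest was NGFR in SW480 (-0.78 ± 0.31, limma adjusted p = 0.0588, unadjusted 0.0148), where all 6 arrays lay below the controls of their series. On the degraded replicate 2 arrays of SW620 it stood at 5.71 (MAP2K1 knockdown) and 5.86 (MAPK3 knockdown), against 9.61 with the non-target hairpin and 9.02 with the empty vector.

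The changes differed between the lines, and a test of that difference was made for each gene and knockdown. With NGFR, 11 of 29 genes had a higher change in SW620 than in SW480 (37.9%, against 10.5% of all genes), and 7 or 8 passed without any 1 of replicates 3 to 6 (at most 16.0% of all genes in those runs, in either direction). The same was found for 5 genes with HRAS (17.2%, against 10.2%), 4 with MAPK3 (13.8%, against 8.17%), 3 with MAP2K2 (10.3%, against 4.53%), 2 with CDK5 (6.90%, against 6.5%) and 2 with MAP2K1 (6.90%, against 5.64%). For CDK5 and MAP2K1 these shares lay close to that of all genes. Only SREBF2 with MAPK3 passed in the other direction (-0.52, 3.45%, against 8.83% of all genes). With the other knockdowns 0 did, against 9.06% of all genes with CDK5, 8.69% with HRAS, 5.9% with MAP2K1, 5.91% with MAP2K2 and 13.3% with NGFR. The difference of INSIG1 with NGFR was 1.73 ± 0.50 (adjusted p = 0.00716), that of LSS 1.36 ± 0.24 (1.07e-05), that of ELOVL6 1.22 ± 0.26 (0.00016) and that of ACACA 1.14 ± 0.15 (1.68e-08). ACACA passed this test in 5 of the 6 knockdowns, all but CDK5, with differences of 0.48 to 1.14. ACLY passed it with MAP2K1 (1.00 ± 0.17, 1.61e-05), NGFR (0.88), MAPK3 (0.70) and HRAS (0.49). The CDK5 differences of ACAT2 (1.01, adjusted p = 0.032) and LSS (0.82, 0.0173) ended without any 1 of replicates 3 to 6 (0.0909 to 0.133), as did the NGFR differences of ACAT2, FASN and PMVK (0.0667 to 0.138). The HRAS differences of ACLY and FDPS (0.0655 to 0.149) and the MAP2K2 difference of LSS (0.0849 to 0.0988) ended in those runs too. Without replicate 2 the HRAS differences of ACACA (0.24, adjusted p = 0.0707) and ACSS2 (0.53, 0.0568) ended, and without the arrays that stood apart that of SREBF2 with MAPK3 did (-0.26, 0.207). Counted in either direction, leaving out replicate 2 gave 8 to 14 genes for each knockdown (20.3% to 31.5% of all genes in that run), and leaving out replicate 1 gave 6 to 14 (23.4% to 29.4%). With all arrays the counts were 2 with CDK5 (15.6% of all genes), 5 with HRAS (18.9%), 2 with MAP2K1 (11.5%), 3 with MAP2K2 (10.4%), 5 with MAPK3 (17.0%) and 11 with NGFR (23.7%). Leaving out any 1 of replicates 3 to 6 gave 0 with CDK5 (6.77% to 7.64% of all genes) and 1 or 2 with HRAS (8.83% to 12.2%). With the mean of probe sets the differences of ACACA with HRAS (0.17, adjusted p = 0.458), SREBF2 with MAPK3 (-0.23, 0.209) and FASN with NGFR (0.60, 0.068) ended.

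Label series set much of the spread of these genes. Over 464 pairs of group and gene, the median standard deviation was 0.06 within replicates 3 to 6 and 0.42 over all replicates. In vector controls of SW620, INSIG1 was 3.24 higher in replicates 3 to 6 than in the mean of replicates 1 and 2, MSMO1 2.85 and ELOVL6 2.74 higher, while FASN (-2.23) and MVK (-1.71) were lower (log2 differences of levels). In SW480 the same comparison gave 1.97 for MSMO1 and -2.47 for FASN. The sterol medians of the knockdowns were highest in replicate 2. In SW620 they lay between 0.72 and 1.29 in replicate 2, between 0.00 and 0.34 in replicate 1 and between -0.14 and 0.31 in replicates 3 to 6. In SW480 they lay between -0.12 and 1.12 in replicate 2, between -0.53 and 0.12 in replicate 1 and between -0.64 and 0.09 in replicates 3 to 6. With CDK5 in SW620, the sterol median was thus 1.11 in replicate 2 and 0.30 in replicates 3 to 6, in which 12 of 16 genes lay above 0. With HRAS in SW480 it was 0.69 in replicate 2 and -0.64 in replicates 3 to 6, in which 2 of 16 lay above 0. Without replicate 2, 12 of 16 sterol genes fell with the HRAS knockdown in SW480 (median -0.48, with 19.3% of all genes lower in that run) and 11 with the MAPK3 knockdown (median -0.52, with 11.1%). With replicate 2 kept, 5 and 2 fell, against 16.2% and 6.46% of all genes.

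**Figure D3:**
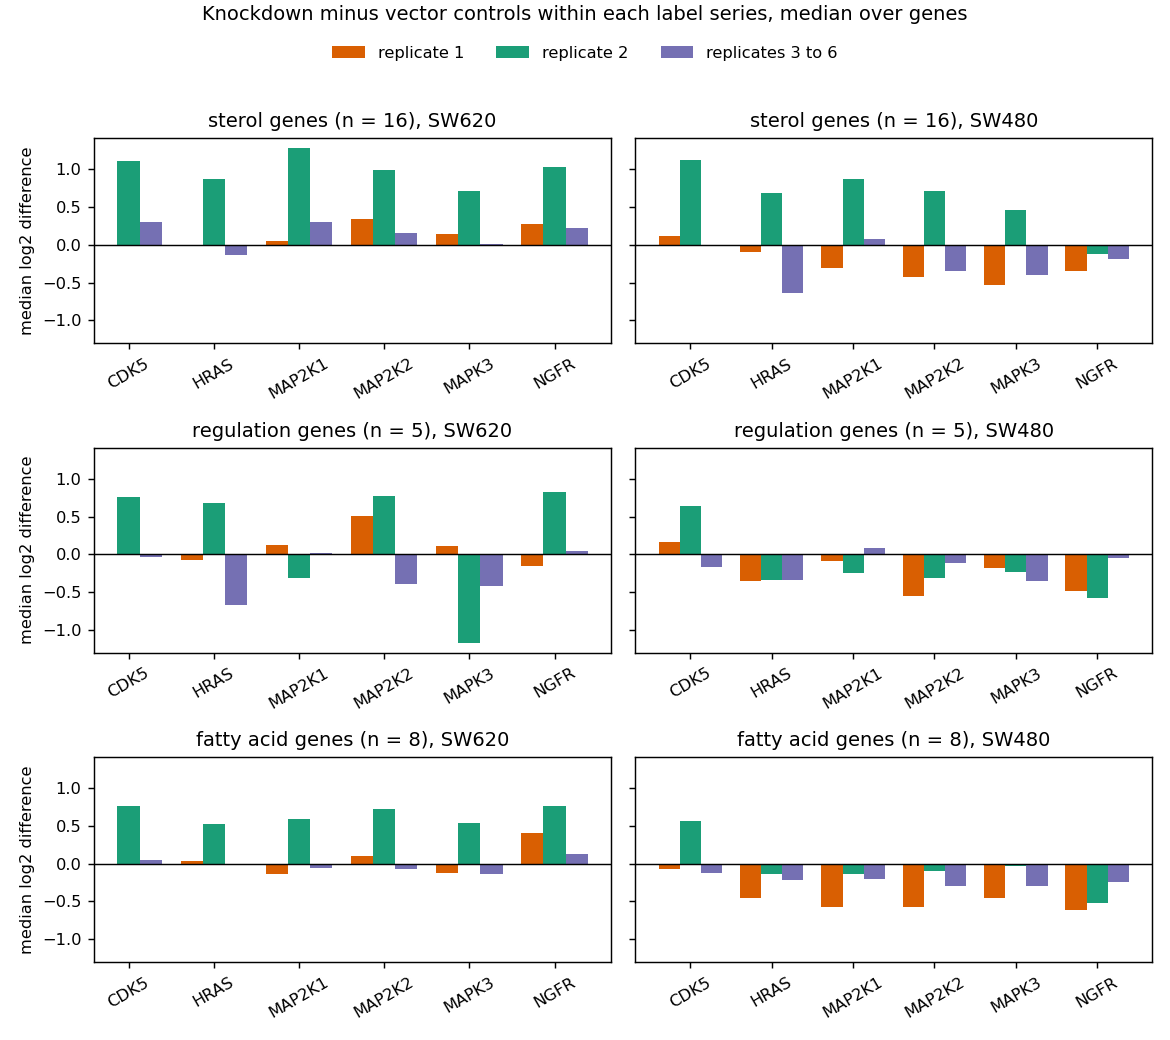
Bars show the median log2 difference from the vector controls of the same line and label series over the sterol, regulation and fatty acid genes, for each knockdown (SW620 left of SW480) and label series. Replicate 2 gives the highest sterol medians (0.72 to 1.29 in SW620), and the sterol medians of replicates 3 to 6 lie between -0.64 and 0.31.

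The vector controls themselves were not alike in every series. In replicate 1 of SW480, 15 of the 16 sterol genes were higher with the non-target hairpin than with the empty vector, with a median of 1.24. There HMGCS1 read 8.46 with the non-target hairpin and 5.95 with the empty vector, and INSIG1 10.03 and 8.01. In replicates 3 to 6 of SW480 the sterol median was 0.18, with INSIG1 at 9.85, 9.83, 9.84 and 9.70 against 8.75, 8.73, 8.72 and 8.77. Over all replicates limma called 0 of 29 genes between the non-target hairpin and the empty vector in SW480 (8 with an unadjusted p under 0.05, and 0.101% of all genes called), although 27 of 29 lay above 0 with a median of 0.23. Without replicate 2 it called 7 (0.713% of all genes). In SW620 limma also called 0 (0 with an unadjusted p under 0.05, and 0.00506% of all genes), with a median of 0.12. Replicate 7 holds only the non-transduced array of each line, so with the label series term the comparison with non-transduced cells rests on 2 such arrays a line, those of replicates 1 and 2. Against them, the vector controls of SW620 were lower in LSS (-0.90 ± 0.27, adjusted p = 0.0344), 1 of 29 genes (3.45%, against 1.54% of all). That call ended without replicate 1 (-0.03, 0.963), where non-transduced SW620 cells read 9.81 for LSS, against 8.41 with the non-target hairpin and 8.14 with the empty vector. Without replicate 2, which leaves 1 such array, 15 genes were called in SW620 (16.7% of all genes). In SW480 limma called 0 of 29 (0 with an unadjusted p under 0.05, and 0.0% of all genes).

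Between the lines' vector controls, the sterol and fatty acid genes were mostly lower in SW620 than in SW480. Of 29, 17 were lower (58.6%, against 22.1% of all genes) and 3 higher (10.3%, against 23.2%). STARD4 read 7.10, 6.31, 8.58, 8.37, 8.42 and 8.45 in SW620 with the non-target hairpin, against 9.21, 8.99, 9.35, 9.35, 9.41 and 9.29 in SW480. With the empty vector it read 6.42, 6.51, 8.49, 8.43, 8.39 and 8.52 in SW620, against 9.20, 9.00, 9.00, 9.02, 9.02 and 9.03 in SW480. The lines did not overlap, and the difference was -1.57 ± 0.19 (adjusted p = 3.14e-11). NSDHL (-1.16), LSS (-1.08), LPIN1 (-1.06), INSIG1 (-0.99), ACAT2 (-0.93) and ACSS2 (-0.88) were also lower. SCD (0.64), SREBF2 (0.51) and SREBF1 (0.45) were higher in SW620. SCD (0.07, adjusted p = 0.766) and ELOVL6 (-0.10, 0.521) were not called with the mean of probe sets. Without replicate 1 the calls of INSIG1 (-0.42, adjusted p = 0.236), DHCR7 (-0.39, 0.0961), EBP (-0.55, 0.0737), ELOVL6 (-0.12, 0.6), FDPS (-0.15, 0.268) and TM7SF2 (-0.22, 0.178) ended. In replicates 3 to 6 only, ELOVL6 was 0.10 higher in SW620, INSIG1 0.05, TM7SF2 0.03 and FDPS 0.01. The median difference of the sterol genes was -0.33 over all replicates, -0.19 without replicate 1 and -0.08 in replicates 3 to 6 only. For the fatty acid genes these medians were -0.50, -0.44 and -0.21.

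**Figure D4:**
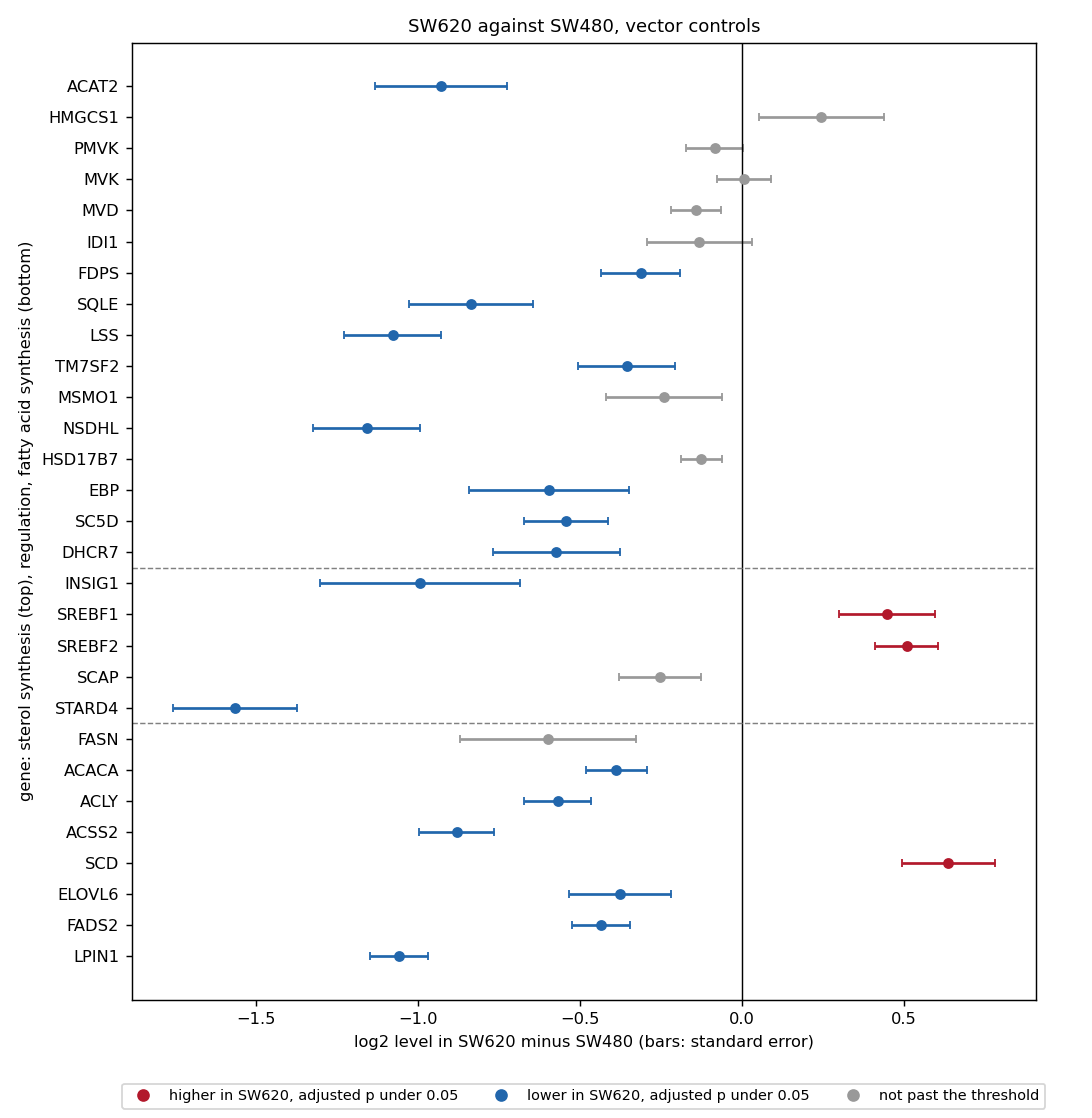
Log2 level in SW620 minus SW480 over the vector controls for each of the 29 measured genes (points, with bars of 1 standard error; red higher and blue lower in SW620 at an adjusted p under 0.05, grey not past it). The blue points number 17, with STARD4 (-1.57) farthest from 0, and the red points are SCD, SREBF2 and SREBF1.

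The other genes of these pathways were read from 5 further lists. Of 7 measured genes of SREBP processing and sterol-sensing turnover, 4 fell with HRAS in SW480, against 16.2% of all genes. With each of HRAS, MAP2K2, MAPK3 and NGFR in SW620, 3 of the 7 fell, against 12.7% to 16.8% of all genes, and 1 rose, against 10.5% to 14.2%. ERLIN2, part of the membrane complex that recruits sterol-regulated proteins for degradation, fell by 1.16 ± 0.12 with HRAS in SW620 (adjusted p = 1.68e-12) and by 1.42 ± 0.12 in SW480 (4.08e-16). Its partner ERLIN1 fell with MAPK3 by 0.97 ± 0.09 in SW620 (8.94e-15) and by 0.86 ± 0.09 in SW480 (3.86e-12). INSIG2, the second INSIG gene, fell by 1.34 ± 0.20 with CDK5 in SW620 (2.75e-07) and by 1.01 ± 0.19 with HRAS in SW480 (1.75e-05). MBTPS2, a protease that releases SREBPs, fell in SW620 with NGFR (-0.73), MAP2K2 (-0.57) and HRAS (-0.51).

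Of 13 genes of sterol efflux, storage and traffic, 6 fell with HRAS in SW620 (16.8% of all genes) and 2 rose (14.2%). With CDK5 in SW620, 5 fell (13.4% of all) and 2 rose (10.6%). In SW480, 4 rose with NGFR (13.1% of all). Also in SW480, 4 fell with CDK5 (3.9% of all) and 4 with MAPK3 (6.46%), and 0 rose with either (4.15% and 4.21% of all). The shares that rose in SW620 were near those of all genes. LIPA, the lysosomal acid lipase, fell with HRAS by 1.23 ± 0.15 in SW620 (2.27e-10) and by 1.66 ± 0.15 in SW480 (2.76e-15). SOAT1, which esterifies cholesterol, fell in SW480 by 1.00 with HRAS and by 0.76 with CDK5 on the log2 scale. ABCA1, a cholesterol exporter, rose with NGFR by 0.67 ± 0.17 in SW620 (adjusted p = 0.00173) and by 1.78 ± 0.17 in SW480 (1.8e-14). In SW480 it fell with MAP2K1 (-0.72) and MAPK3 (-0.68). TMEM97 rose in SW620 with CDK5, HRAS, MAP2K1 and MAP2K2, by between 0.62 and 0.68.

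In the isoprenoid branch, 4 of 8 measured genes rose with MAPK3 in SW620, against 13.9% of all genes, the highest count among the 12 knockdown comparisons, and 0 to 2 rose in the others. FNTA, a prenyltransferase subunit, fell in SW620 with CDK5 (-0.78), MAP2K2 (-0.60) and HRAS (-0.43). Of 16 genes of fatty acid activation, elongation and glycerolipid synthesis, 5 fell with HRAS in SW620 (16.8% of all genes), and 4 fell with MAP2K2 (12.7%) and with MAPK3 (15.9%) there. The elongase ELOVL5 fell with HRAS by 0.64 ± 0.11 in SW620 (2.15e-06) and by 0.98 ± 0.11 in SW480 (1.73e-11), and rose with NGFR in SW480 (0.70). ACSL1, which activates fatty acids, fell with MAPK3 by 1.38 ± 0.21 in SW620 (1.34e-07) and by 1.07 ± 0.21 in SW480 (9.84e-05). In SW620, LPIN2 and MID1IP1 fell with CDK5, MAP2K1, MAP2K2, MAPK3 and NGFR. Of 7 genes of fatty acid oxidation, 5 fell with HRAS and 5 with MAPK3 in SW620, against 16.8% and 15.9% of all genes, among them the carnitine palmitoyltransferases CPT2 (-0.56 and -0.90) and CPT1A (-0.58 and -0.51).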

How the data were processed

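RNA of SW620 and SW480 cells was measured on Affymetrix arrays with 54675 probe sets. The deposited values are log2 signals made by the authors with RMA, per the submitters' processing notes; version, background and annotation settings are not given in the sources used here. Probe sets were named through the platform annotation, which pairs 41097 with a single gene, 1801 with several and 11777 with none. Of the names, 41043 were updated through RefSeq (GRCh38.p14) and 54 kept as given. For 10523 of 19775 genes, which had more than 1 probe set, the one with the highest mean level was used.

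Changes were fitted across all genes in R 4.3.3 by the lmFit and eBayes functions of limma 3.58.1 (trended, robust variances), with terms for group and for label series within each line. The 23 comparisons were each adjusted by Benjamini-Hochberg over 19775 genes, two-sided, at 0.05. Tables and figures were made with data.table (version 1.17.8), Python 3.11.15, numpy 2.4.6, pandas 2.3.3 and matplotlib 3.10.9. On data simulated for the CDK5 knockdown in SW620 over 19775 genes, 71.6%, 98.5% and 100% of genes changed by 0.5, 1 and 2 (log2) were called, and 8.16% of calls were unchanged genes. For the line difference these were 49.3%, 94%, 100% and 3.57%. The simulated noise was independent between arrays, with knockdown changes alike in every label series. In the measured arrays the median standard deviation was 0.06 within replicates 3 to 6 and 0.42 over all replicates. The simulated shares therefore cannot be taken as the error rate or power for these data.

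Any of the listed genes could be named. From each further pathway list, up to 3 called genes with the smallest p per comparison were eligible. The members and lists were chosen with earlier results of these data known. Alternatives covered the control used, the series term, a replicate block, probe set averaging, a filter on dim genes, a second quantile normalisation, averaging of array pairs, subsets of label series, arrays that stood apart and each replicate. The replicate 7 label of 2 non-transduced arrays follows their titles, where another label field gives 4. The number of genes knocked down in the study's design text is 8, of which 6 are analysed here.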

Additional observations from a re-analysis of the deposited data

Results flagged for a closer look

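On most knockdowns, 1 array stood far from the other arrays of its group in the median difference of the sterol genes from the vector controls of the same line and label series. In SW620 this was replicate 2 with CDK5 (1.11), HRAS (0.87), MAP2K1 (1.29), MAP2K2 (0.99), MAPK3 (0.72) and NGFR (1.03), above the other arrays each time. In SW480 it was replicate 2 with CDK5 (1.12), MAP2K2 (0.72) and MAPK3 (0.46), and replicate 1 with NGFR (-0.34). For the regulation genes it was replicate 2 in SW620 with CDK5 (0.76) and NGFR (0.83). For the fatty acid genes it was replicate 2 in SW620 with CDK5 (0.77), HRAS (0.52), MAP2K1 (0.59), MAP2K2 (0.72) and MAPK3 (0.54). In SW480 it was replicate 2 with CDK5 (0.57) and replicate 1 with MAP2K1 (-0.59). Dixon's test at its 95% level marks about 1 in 20 groups by chance where arrays are independent. That rate does not apply here, since these genes had a median standard deviation of 0.06 within replicates 3 to 6 and 0.42 over all replicates. The MAP2K1 and MAPK3 replicate 2 arrays of SW620 and the MAP2K1 replicate 1 array of SW480 are among the 6 that stood apart. The part of RNA quality, or of the SW620 genes held by that SW480 array, in these values was not tested.

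The change in SW620 minus the change in SW480 passed limma's test of the difference for 28 pairs of gene and knockdown. With CDK5 these were ACAT2 (1.01) and LSS (0.82). With HRAS they were ACAT2 (1.13), ACSS2 (0.59), FDPS (0.59), ACLY (0.49) and ACACA (0.48). With MAP2K1 they were ACLY (1.00) and ACACA (0.59), and with MAP2K2 LSS (0.86), ACSS2 (0.70) and ACACA (0.66). With MAPK3 they were NSDHL (1.03), ELOVL6 (0.99), ACACA (0.77), ACLY (0.70) and SREBF2 (-0.52). With NGFR they were INSIG1 (1.73), LSS (1.36), ELOVL6 (1.22), FASN (1.21), ACACA (1.14), ACAT2 (0.95), ACLY (0.88), IDI1 (0.81), FDPS (0.70), HSD17B7 (0.49) and PMVK (0.41). The 6 knockdowns of a line share their vector controls, so the differences of a gene across knockdowns are not independent. NGFR itself stood at 9.25% of the vector controls in SW480 and at 69.8% in SW620, and the part of this in its differences was not tested.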

How the results depend on the processing

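Values here are counts of the 29 measured genes called at an adjusted limma p under 0.05, given where a setting moved a count by over 1.5 times. The share of all genes called in each setting is not set beside them here. A count in this section therefore does not tell whether these genes were called more often than others. Counts with replicates 3 to 6 only rest on the spread within that series, with a median standard deviation of 0.06 for these genes. With all arrays they were in SW620 12 with CDK5, 7 with HRAS, 8 with MAP2K1, 3 with MAP2K2, 9 with MAPK3, 6 with NGFR, then in SW480 0 with CDK5, 11 with HRAS, 2 with MAP2K1, 5 with MAP2K2, 6 with MAPK3, 11 with NGFR, then for the line difference 2 with CDK5, 5 with HRAS, 2 with MAP2K1, 3 with MAP2K2, 5 with MAPK3, 11 with NGFR, then 0 for non-target against empty vector in SW480, 0 for vectors against non-transduced SW480, 0 for non-target against empty vector in SW620, 1 for vectors against non-transduced SW620, 20 between the lines. With the empty vector alone as control the counts were in SW480 3 with CDK5, 7 with HRAS, 4 with MAP2K1, 0 with MAP2K2, 1 with MAPK3, then for the line difference 0 with CDK5, 1 with HRAS, 1 with MAP2K1, 7 with NGFR, then 13 between the lines. With the non-target hairpin alone as control they were in SW620 5 with CDK5, 4 with MAP2K1, 1 with MAP2K2, then for the line difference 1 with CDK5, 3 with HRAS, then 0 for vectors against non-transduced SW620. With the mean of all probe sets of a gene they were in SW620 5 with MAP2K2, 5 with MAPK3, then in SW480 1 with CDK5, 1 with MAP2K1, 3 with MAP2K2, then for the line difference 5 with MAP2K2, then 3 for vectors against non-transduced SW620. Without genes under the 40th percentile of level (5.49) they were in SW480 1 with CDK5, then for the line difference 8 with MAPK3, then 2 for vectors against non-transduced SW620. After a second quantile normalisation they were in SW620 5 with MAP2K2, then in SW480 3 with MAPK3, then 1 for non-target against empty vector in SW480. Without the label series term they were in SW620 5 with CDK5, 2 with HRAS, 2 with MAP2K1, 0 with MAP2K2, 4 with MAPK3, 3 with NGFR, then in SW480 4 with HRAS, 1 with MAP2K1, 0 with MAP2K2, 1 with MAPK3, 3 with NGFR, then for the line difference 0 with CDK5, 0 with HRAS, 1 with MAP2K1, 1 with MAP2K2, 2 with MAPK3, 4 with NGFR, then 0 for vectors against non-transduced SW620, 11 between the lines. With the arrays of replicates 3 to 6 averaged in pairs they were in SW620 2 with CDK5, 3 with HRAS, 2 with MAP2K1, 0 with MAP2K2, 3 with NGFR, then in SW480 5 with HRAS, 1 with MAP2K1, 0 with MAP2K2, 1 with MAPK3, 3 with NGFR, then for the line difference 0 with CDK5, 0 with HRAS, 1 with MAP2K1, 0 with MAP2K2, 1 with MAPK3, 5 with NGFR, then 0 for vectors against non-transduced SW620. With replicates 3 to 6 only they were in SW620 23 with CDK5, 20 with HRAS, 20 with MAP2K1, 22 with MAP2K2, 20 with MAPK3, 20 with NGFR, then in SW480 16 with CDK5, 24 with HRAS, 17 with MAP2K1, 21 with MAP2K2, 24 with MAPK3, 23 with NGFR, then for the line difference 19 with CDK5, 27 with HRAS, 21 with MAP2K1, 21 with MAP2K2, 21 with MAPK3, 22 with NGFR, then 17 for non-target against empty vector in SW480, 3 for non-target against empty vector in SW620. Without the arrays that stood apart they were in SW620 12 with HRAS, 10 with MAP2K2, 14 with NGFR, then in SW480 3 with CDK5, 17 with HRAS, 4 with MAP2K1, 19 with NGFR, then for the line difference 8 with CDK5, 14 with HRAS, 5 with MAP2K1, 7 with MAP2K2, 17 with NGFR, then 1 for non-target against empty vector in SW480, 7 for vectors against non-transduced SW620. With replicates 1 and 2 only, an alternative chosen after seeing the data, they were 1 with HRAS in SW480, 4 between the lines, and 0 for the other comparisons with a nonzero count over all arrays. Leaving out each of replicates 1 to 7 in turn, in all groups at once, gave in SW620 5 to 16 with CDK5, 6 to 13 with HRAS, 5 to 12 with MAP2K1, 3 to 10 with MAP2K2, 8 to 16 with MAPK3, 6 to 10 with NGFR. In SW480 it gave 0 to 5 with CDK5, 8 to 21 with HRAS, 1 to 7 with MAP2K1, 3 to 14 with MAP2K2, 1 to 21 with MAPK3, 6 to 17 with NGFR. For the line difference it gave 0 to 8 with CDK5, 1 to 13 with HRAS, 2 to 10 with MAP2K1, 1 to 11 with MAP2K2, 4 to 14 with MAPK3, 7 to 14 with NGFR, and for the controls 0 to 7 for non-target against empty vector in SW480, 0 to 1 for vectors against non-transduced SW480, 0 for non-target against empty vector in SW620, 0 to 15 for vectors against non-transduced SW620, 16 to 25 between the lines. The causes of these shifts were not tested.

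The replicate numbers did not pair the arrays: over 96 pairs of groups, deviations of same-numbered arrays correlated between -0.27 and 0.24 (median -0.01), and 14 were over 0.1. With the replicate number as a block, the counts were in SW620 11 with CDK5, 7 with HRAS, 8 with MAP2K1, 3 with MAP2K2, 9 with MAPK3, 6 with NGFR, then in SW480 0 with CDK5, 11 with HRAS, 2 with MAP2K1, 5 with MAP2K2, 4 with MAPK3, 10 with NGFR, then for the line difference 2 with CDK5, 5 with HRAS, 2 with MAP2K1, 3 with MAP2K2, 5 with MAPK3, 11 with NGFR, then 0 for non-target against empty vector in SW480, 0 for vectors against non-transduced SW480, 0 for non-target against empty vector in SW620, 1 for vectors against non-transduced SW620, 14 between the lines. This moved no count by over 1.5 times.

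Of 129 single-gene calls, 119 held with the block, 129 without dim genes, 123 after a second quantile normalisation, 122 without the arrays that stood apart, 103 with the mean of probe sets, 94 with the non-target hairpin alone, 84 with the empty vector alone, 46 with pairs averaged, 44 without the series term and 5 with replicates 1 and 2 only. With replicates 3 to 6 only, 123 of 128 held. Directions turned in 8 cases. With replicates 1 and 2 only, these were INSIG1 (0.14) and SQLE (0.42) with HRAS in SW480, and SCD with HRAS (0.04) and with MAPK3 (0.12) in SW620. With replicates 3 to 6 only, they were the SW620 minus SW480 levels of ELOVL6 (0.10), FDPS (0.01), INSIG1 (0.05) and TM7SF2 (0.03). Brightness gives no read depth, so the number of arrays limits the precision, and genes near background give compressed changes.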
